A study of Homo sapiens with 6 samples.

Results

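The genes described here are 37 genes of the DNA replication machinery, named by symbol: the 6 subunits of the origin recognition complex, the helicase loaders CDC6 and CDT1, the 6 subunits of the MCM2 to MCM7 helicase, the helicase activators MCM10, CDC45 and GINS1 to GINS4, the polymerase subunits POLA1, POLD1 and POLE, the sliding clamp PCNA with its loader RFC1 to RFC5, the single-strand binding proteins RPA1 to RPA3, the nucleotide enzymes RRM1, RRM2 and TYMS, and the Okazaki fragment enzymes FEN1 and LIG1. Their members were found by matching these symbols to the nearest-gene column of 4 lists of occupied regions. Of the 37 genes, 36 had at least 1 region in at least 1 list, out of 16428 genes named in the lists, and they held 424 of 271336 regions. RPA1 was given no region in any list.

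RPB1, the largest subunit of RNA polymerase II, and RPB1 phosphorylated on serine 2 of its C-terminal repeats (pSer2) were profiled by ChIP-seq in untreated HepG2 cells, a human hepatoma line. SHP-1 is the tyrosine phosphatase encoded by PTPN6, and the study asked whether its loss changes polymerase occupancy. SHP-1 KO cells were a CRISPR/Cas9 line cut in PTPN6 and selected as a single-cell clone. The paper does not say whether the SHP-1 WT cells used for ChIP-seq were untransfected or carried a nontargeting guide. The effect of the gene and the difference between clones or lines cannot be told apart. There was 1 library per antibody and cell line, each called against the input of the same cells, so no difference below carries a replicate error, a test or a p-value. PTPN6 itself carried RPB1 promoter fold enrichments of 24.0 in WT and 17.2 in KO, and occupancy by polymerase does not check a cut in the coding part. All 10 hepatocyte and hepatoma marker genes examined had RPB1 at the start in both lines, against 0 of 4 blood cell, 0 of 3 neuronal and 0 of 3 skeletal muscle markers.

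DNA replication starts when the origin recognition complex, CDC6 and CDT1 load the MCM helicase onto DNA in G1 phase. CDC45, the GINS complex and MCM10 then switch the helicase on, the polymerases copy the strands while PCNA holds them on the template, and FEN1 and LIG1 seal the lagging strand. Transcription of many of these genes rises as cells enter S phase and is known to depend on E2F factors. RPB1 accumulates just past the start of active genes, and phosphorylation on serine 2 builds up during elongation and is highest near the 3′ end.

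RefSeq promoter windows (GRCh38.p14, 250 bases before to 50 bases after the start) were at hand for 32 of the 37 genes and were missing for MCM4, MCM5, GINS4, RPA2 and RPA3. The E2F element, searched on both strands as 3 T, then 2 bases that are each C or G, then CGC, occurred in 15 of the 32 windows (46.9%), against 919 of 27305 windows of the whole table (3.37%) and 459 of the 8450 with an RPB1 promoter region in both lines (5.43%). The CCAAT box, searched as CCAAT on both strands, was in 20 of the 32 windows (62.5%), against 35.7% of the table and 36.5% of the genes with RPB1. The GC box, searched as GGGCGG on both strands, was in 24 of the 32 (75.0%), against 46.0% of the table and 74.0% of the genes with RPB1. A match is a description of the letters and not of a bound site. The 120 bases that end at the start are given for 6 genes, because RPB1 there was among the most lowered (LIG1, RFC5), among the most raised (MCM7, RFC4) or the stretch holds an E2F element (MCM6, TYMS), with each E2F element in capitals. MCM6 lies at chr2:135876444-135876563, minus strand, TYMS at chr18:657533-657652, plus strand, MCM7 at chr7:100101398-100101517, minus strand, LIG1 at chr19:48170345-48170464, minus strand, RFC4 at chr3:186806483-186806602, minus strand and RFC5 at chr12:118016583-118016702, plus strand.
MCM6: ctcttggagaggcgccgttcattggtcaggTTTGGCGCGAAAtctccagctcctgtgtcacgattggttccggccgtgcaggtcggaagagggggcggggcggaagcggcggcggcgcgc
TYMS: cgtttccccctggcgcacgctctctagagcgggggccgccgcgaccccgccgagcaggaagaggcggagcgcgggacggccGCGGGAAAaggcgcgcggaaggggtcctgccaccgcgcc
MCM7: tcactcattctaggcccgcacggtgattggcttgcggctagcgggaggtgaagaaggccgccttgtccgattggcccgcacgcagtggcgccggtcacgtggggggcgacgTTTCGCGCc
LIG1: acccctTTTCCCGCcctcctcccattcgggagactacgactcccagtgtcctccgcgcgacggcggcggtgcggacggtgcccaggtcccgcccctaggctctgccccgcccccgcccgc
RFC4: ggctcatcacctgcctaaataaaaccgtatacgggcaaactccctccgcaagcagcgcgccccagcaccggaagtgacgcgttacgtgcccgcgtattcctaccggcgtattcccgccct
RFC5: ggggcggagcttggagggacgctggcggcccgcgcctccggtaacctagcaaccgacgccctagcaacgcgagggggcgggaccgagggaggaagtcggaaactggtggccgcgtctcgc
In MCM6 the capitals are 2 elements on opposite strands that share 4 bases, from 90 to 79 bases before the start. MCM7 held an element from 9 to 2 bases before its start, and LIG1 from 114 to 107. No element was found in the windows of RFC4 and RFC5.

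RPB1 was listed at the start of nearly every one of these genes in both lines. A region within 500 bp of the start of the MANE Select transcript (the representative transcript of the gene) was listed for 36 of the 37 genes in WT, where 60.0% of all coding genes had such a region, and for 36 in KO, where 58.0% had it. The exception was RPA3, a subunit of the single-strand binding complex, whose RPB1 region lay at an inner start (chr7:7640017-7641198 in WT, fold enrichment 25.1, and chr7:7640214-7641378 in KO, 13.7). Each value is the strongest fold enrichment over input at a summit, as the peak caller gave it, and it is a level of occupancy and not of RNA.

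The level of RPB1 was lower in KO at most of these starts, as it was at most genes. The median over the 36 genes was 21.4 in WT and 14.3 in KO, against 29.1 and 20.9 over all genes with RPB1 at the start. Fold enrichment was lower in KO at 31 of the 36 genes, and at 87.5% of the 10927 genes with a value in both lines. The median KO to WT ratio was 0.628 for the replication genes and 0.716 for all genes. On the log2 scale, and after the median of all genes was subtracted, the median difference of the replication genes was -0.19, and 26 of the 36 lay below the median of all genes. Whether a shift shared by the whole list lies in the cells or in the libraries cannot be told apart, so the differences named below are relative to the median of all genes.

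**Figure D1:**
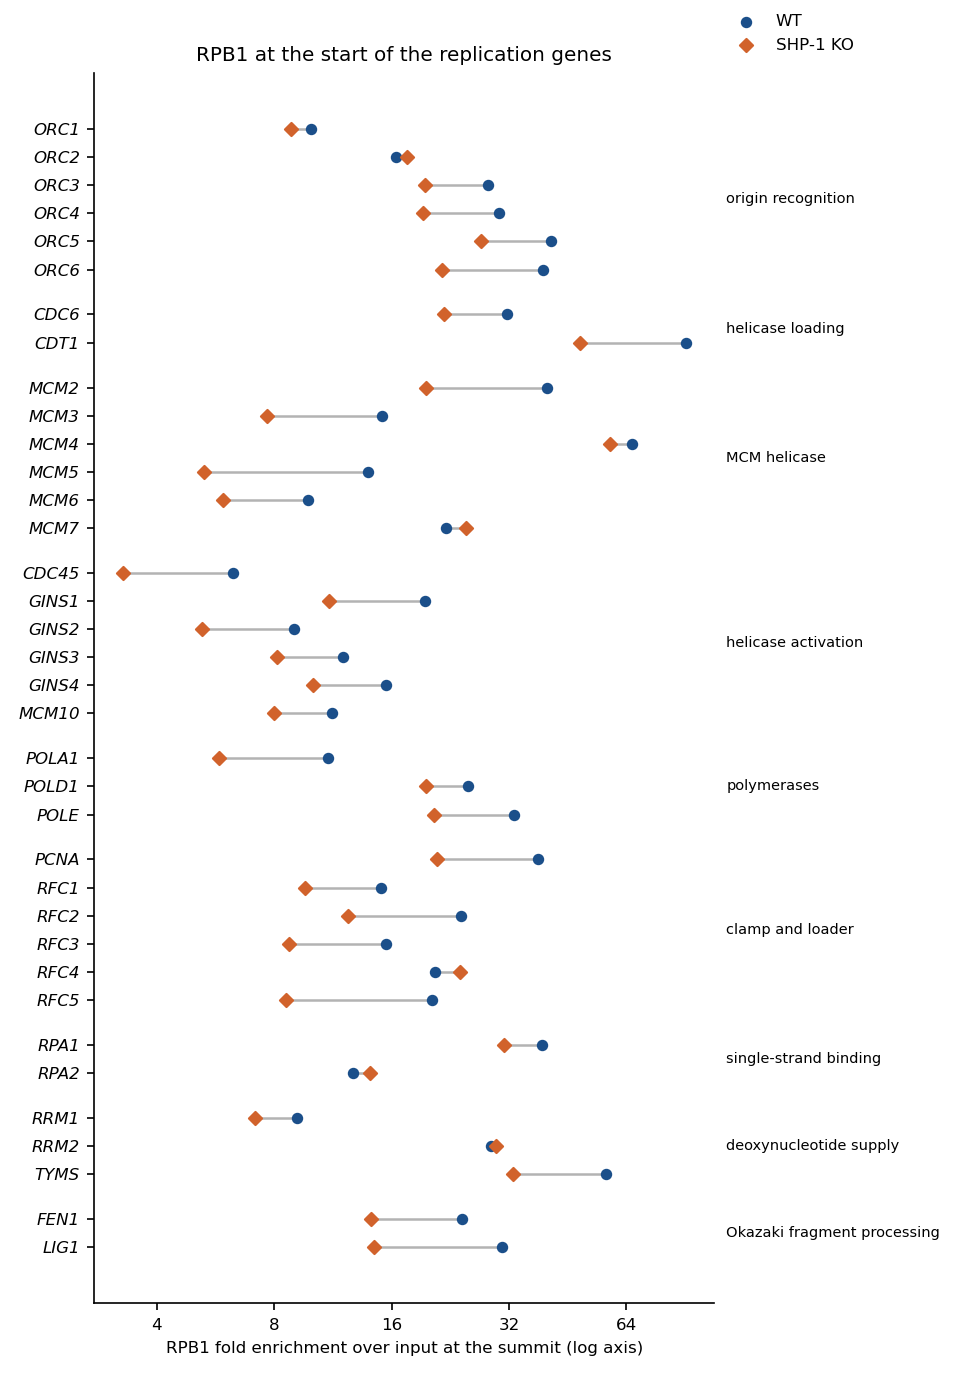
RPB1 fold enrichment over input within 500 bp of the start (log axis) for the 36 replication genes with a region there, grouped by role. Circles are the WT library and diamonds the SHP-1 KO library, 1 library each, and the KO value is the lower at 31 of the 36 genes. The CDT1 value in WT has its summit at APRT.

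Most summits lay close to the starts. With places before the start counted as negative, the median position was 29 bp in WT and 5.5 bp in KO. Over all genes it was 44 bp and 42 bp. Positions before and past the start offset each other in this median, so it is not a typical distance. The quartiles of the replication genes were -224.5 and 93.25 bp in WT and -252.5 and 64 bp in KO. Of the 36 summits, 30 in WT and 33 in KO lay within 500 bp. The regions had a median width of 1245 bp in WT and 936 bp in KO, against 1392 bp and 1232 bp over all genes. In WT 31 of the 36 regions were given to the gene itself (86.1%, against 79.2% of all genes), and in KO 32 (88.9%, against 79.5%).

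Few of the genes lay far from the median of all genes. Past a fold of 1.5 after centring, MCM5, RFC5 and LIG1 were lower in KO (3 of 36, or 8.33%, where 8.64% of all genes were), and MCM7, RFC4 and RPA2 were higher (3 of 36, or 8.33%, where 8.57% were). Both shares were near those of all genes. MCM5, a subunit of the helicase ring, had a fold enrichment of 13.9 in WT and 5.28 in KO, a centred log2 difference of -0.91. RFC5, a small subunit of the clamp loader, went from 20.3 to 8.60 (-0.75), and LIG1, the ligase that seals Okazaki fragments, from 30.7 to 14.4 (-0.61). In KO the single WT region over MCM5 was listed as 2 shorter regions, of fold enrichment 4.75 and 5.28.

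The 3 genes on the other side had a higher value in KO, where most genes had a lower one. MCM7, another helicase subunit, had 22.1 in WT and 24.8 in KO (centred log2 difference 0.65). RFC4, a second clamp loader subunit, had 20.7 and 24.0 (0.70). RPA2, of the single-strand binding complex, had 12.7 and 14.1 (0.63). The MCM7 summit lay 939 bp past the start in WT and at -461 bp in KO, so its values come from different places. Without centring none of the 3 was past a fold of 1.5. ORC2 and RRM2 were the other genes with a higher value in KO.

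**Figure D2:**
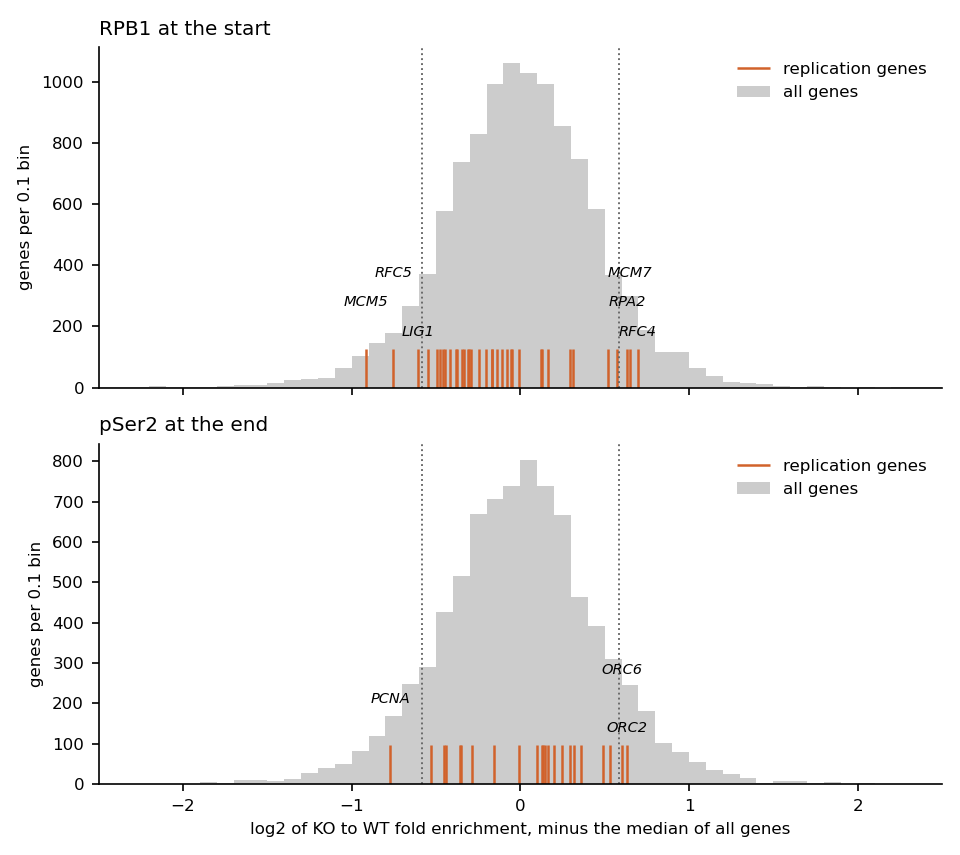
Centred log2 ratios of KO to WT fold enrichment for all genes (grey, genes per bin of 0.1) and for the replication genes (ticks), for RPB1 at the start (10927 genes, 36 ticks) and pSer2 at the end (8277 genes, 23 ticks). Dotted lines mark a fold of 1.5, with 6 of 36 and 3 of 23 ticks outside them. The ticks run from -0.91 to 0.70 for RPB1 and from -0.77 to 0.63 for pSer2, within the wider range of the grey bars.

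Among the origin recognition genes, RPB1 at the start ran from 9.95 at ORC1, the ATPase subunit regulated through the cell cycle, to 41.0 at ORC5 in WT, and the KO values were 8.86 and 27.2. ORC6 had 39.1 and 21.6, with the summit at -519 bp in both lines. VPS35 starts 481 bp away on the other strand, near that summit, so this level cannot be given to ORC6 alone. ORC4 had 30.2 and 19.2. ORC3, a subunit of the same complex, had 28.2 in WT and 19.5 in KO. ORC2 was the only one of the 6 with a higher value in KO, 16.5 against 17.5 (centred 0.57). The median of the 6 centred differences was -0.08.

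CDC6, the ATPase that joins the complex to load the helicase, had a fold enrichment of 31.7 in WT and 21.8 in KO, close to the ratio of all genes (-0.05). CDT1, which brings the helicase to the origin, could not be compared in the same way. In WT a single region (chr16:88801201-88813789) ran over CDT1 and the neighbouring APRT, with its summit of 90.9 lying 8098 bp past the CDT1 start. In KO the stretch was split, with 48.8 at the CDT1 start (chr16:88802585-88805371) and 81.5 at APRT (chr16:88805461-88812913). The WT value is therefore that of the APRT side. CDT1 is among the 31 lower and 26 below the median all the same. The WT and KO summits lay over 500 bp apart at CDT1, MCM7, RRM1 and RRM2, and without these 4 genes, a choice made after seeing the data, 29 of 32 were lower in KO, 25 lay below the median of all genes and the median centred difference was -0.22.

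Over the helicase ring, MCM4 had the highest level, 66.2 in WT and 58.1 in KO, and MCM6 the lowest in WT, 9.80 and 5.93. At MCM4 the summit lay at -799 bp from the start in WT and -796 bp in KO. The PRKDC start is 805 bp away on the other strand, next to both summits, so this level cannot be given to MCM4 alone. MCM3 went from 15.1 to 7.67 (centred -0.50) and MCM2 from 40.1 to 19.6 (-0.55). Of the 6 helicase genes, 4 lay below the median of all genes, and MCM4 and MCM7 above it.

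All 6 helicase activators lay below the median of all genes, with centred differences from -0.46 to -0.01, and none was past a fold of 1.5. GINS1 had the highest level of the group, 19.5 in WT and 11.1 in KO. CDC45, the helicase partner that travels with the fork, had the lowest RPB1 of all 36 genes in both lines, 6.29 and 3.27. The KO value was among the lowest of all genes, from a region of 200 bp with its summit at -314 bp. The WT summit of CDC45 lay at 64 bp, so the 2 values come from different places. GINS2 had 9.01 and 5.22, GINS3 12.0 and 8.14, GINS4 15.4 and 10.0, and MCM10, which stabilises the active helicase, 11.2 and 8.01.

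The catalytic subunit of the priming polymerase, POLA1, was low in both lines, at 11.0 in WT and 5.79 in KO. POLD1 and POLE, the catalytic subunits of the lagging and leading strand polymerases, had 25.2 and 33.1 in WT against 19.7 and 20.5 in KO. PCNA, the clamp that tethers them, had 38.1 in WT and 20.9 in KO. Of its loader, RFC2 went from 24.1 to 12.4, RFC3 from 15.5 to 8.74 and RFC1, the large subunit, from 15.0 to 9.58, so that 5 of the 6 clamp and loader genes lay below the median of all genes and RFC4 above it.

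RPA1 had 38.8 in WT and 31.1 in KO, in regions that the lists give to SMYD4. The ribonucleotide reductase genes lay above the median of all genes (0.52 for RRM2 and 0.12 for RRM1). RRM2, the subunit made in S phase, had 28.8 in WT, at a summit at -2187 bp from the start, and 29.6 in KO, at 22 bp, and RRM1 had 9.14 and 7.12. TYMS, which makes the thymidine precursor, had 56.9 in WT and 32.8 in KO (-0.31), and FEN1, the flap nuclease, 24.3 and 14.2 (-0.29).

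Which gene a region was given to changed several of these values. With the authors' nearest-gene assignment in place of position, 34 genes had an RPB1 promoter region (within 1 kb of a start) in each line and 33 in both, and the median centred difference was -0.16. MCM5 and RFC5 were then past the fold on the lower side (2 of 33, where 9.29% of all genes were) and MCM7, RFC4 and RPA2 on the higher (3 of 33, where 10.3% were). RFC4 read 29.1 in KO under this assignment, from a region inside the transcript rather than at its start. TYMS read 5.17 in WT and 5.62 in KO, because its start region was given to TYMSOS, a gene on the opposite strand. MCM2 alone had an assigned promoter region in WT and not in KO (1 of 35, where 7.64% of all genes did), of fold enrichment 5.94, while its stronger region of 40.1 was given to TPRA1. CDT1 alone had one in KO only (1 of 35, where 4.51% did). LIG1 had none in either line, because its start region was given to ZSWIM9.

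Several of these genes shared a start. Another coding gene began within 1 kb on the opposite strand at 11 of the 37 (29.7%), against 9.38% of all coding genes. The pairs included FEN1 with TMEM258 (312 bp apart), MCM7 with AP4M1 (246 bp), LIG1 with ZSWIM9 (336 bp) and RPA1 with SMYD4 (103 bp). Where the 2 starts of a pair share a region, their signals cannot be told apart. CDC45 and UFD1, 727 bp apart, had separate regions in both lines. Among the 6 genes past the fold at the start, MCM7 and LIG1 have such a partner.

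RPB1 body regions, those the authors classed as exon, intron or UTR and gave to a gene, were listed for few of the replication genes. They need not lie within the representative transcript, and the summits of 4 of the 10 in WT and 14 of the 21 in KO did. Of the 34 genes with an assigned RPB1 promoter region in WT, 5 also had an RPB1 body region (14.7%, against 41.9% of all genes with a promoter region), and in KO 8 of 34 did (23.5%, against 39.8%). FEN1, ORC2 and TYMS had one in both lines. FEN1 went from 9.24 to 3.71 (1 of 3 past a fold of 1.5 on the lower side after centring, where 12.1% of all genes were), and none of the 3 was past it on the higher side, where 9.27% were. The WT value of FEN1 lay 1964 bp past its end, and KO had a region of 8.59 at that place that was given to FADS1, so by position near the end FEN1 had 9.24 in WT and 8.59 in KO, a centred difference of 0.13. ORC2 had 5.61 in WT and 4.13 in KO, both before its start, and TYMS had 4.60 before its start in WT and 4.75 inside the transcript in KO.

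By position, an RPB1 summit from 1 kb past the start to the end of the transcript was listed for 10 of the 36 genes with RPB1 at the start in WT (27.8%, against 46.9% of all such genes) and for 10 of 36 in KO (27.8%, against 45.4%). MCM7, ORC2, POLD1, RFC4, RRM2 and TYMS had such a summit in both lines. FEN1, GINS2, MCM2 and ORC6 had it in WT, and CDC6, GINS1, MCM3 and MCM4 in KO.

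An assigned RPB1 body region in WT only was listed for ORC6 and RFC3 (2 of 10 genes with any, where 23.0% of all genes had this), of fold enrichment 4.21 and 5.60, the latter 120329 bp past the end of RFC3. In KO only it was listed for CDC6, GINS1, MCM4, MCM7 and RRM2 (5 of 10, where 15.2% had this), of 3.84 at RRM2 to 5.21 at MCM7. Those values were all below the KO median over genes with a body region, 5.65. With regions of a −log10 q of at least 5, an RPB1 body region was left for 3 genes in WT and 1 in KO, so the larger number in KO was lost. By position, MCM7 and RRM2 did have RPB1 summits inside the transcript in WT, 6 and 3 of them, so for them the KO-only reading rests on the class and gene given to each region. CDC6, GINS1 and MCM4 had none in WT and 2, 3 and 2 in KO.

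**Figure D3:**
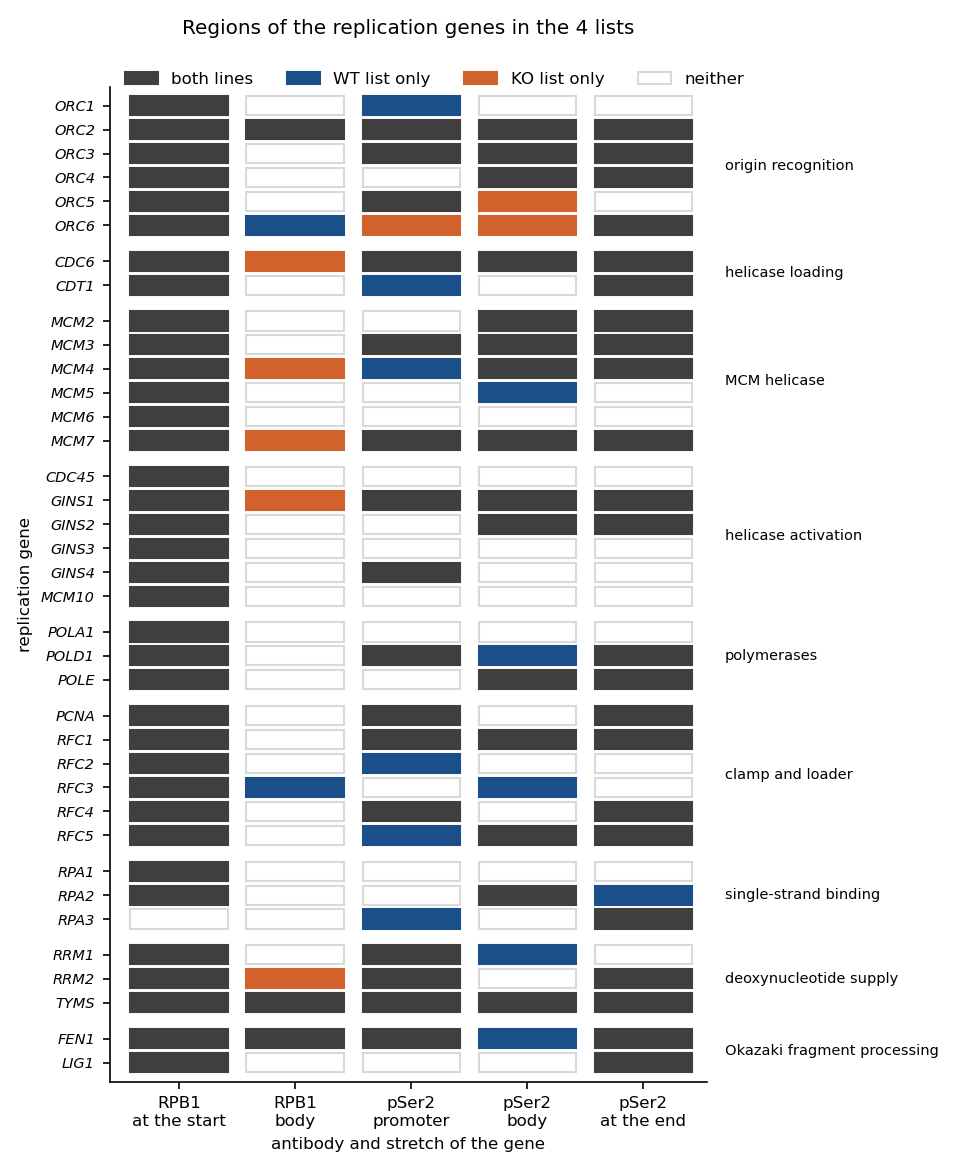
Regions listed for each replication gene, by antibody and stretch: RPB1 within 500 bp of the start, RPB1 body and pSer2 promoter and body as assigned by the authors, and pSer2 from 1 kb before to 3 kb past the transcript end. Dark cells were listed in both lines, blue in WT only, orange in KO only and open cells in neither. The first column is dark for 36 of 37 genes, while the RPB1 body column is open for 27.

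By assigned gene, promoter regions of pSer2 were listed for 22 of the 37 genes in WT and 17 in KO, and for 16 in both. CDC6 went from 9.87 to 5.05 and POLD1 from 11.7 to 7.28, the 2 of the 16 past a fold of 1.5 on the lower side after centring, where 11.0% of all genes were. On the higher side there were 0 of 16, where 10.4% were. Such a region was listed in WT alone for CDT1, MCM4, ORC1, RFC2, RFC5 and RPA3 (6 of 23, where 18.9% of all genes had this), of fold enrichment 3.43 at RFC2 to 4.85 at CDT1. For ORC1 this rests on the gene given to the region, since its start held 3.62 in WT and 4.36 in KO, the KO region being given to PRPF38A. The summit of the CDT1 region was covered in KO by a region given to APRT. The regions of RFC5 and RPA3 lay at inner starts. ORC6 had an assigned promoter region in KO only (1 of 23, where 8.29% had this), at 2.69 and 5990 bp past its start. Except for CDT1, the assigned values lay below the gene medians of 4.83 in WT and 4.87 in KO.

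Body regions of pSer2 were listed for more of the genes than those of RPB1, and the summits of 63 of 96 in WT and 49 of 68 in KO lay within the representative transcript. Of the 34 genes with an assigned RPB1 promoter region, 20 had a pSer2 body region in WT (58.8%, against 59.2% of all such genes) and 16 in KO (47.1%, against 53.4%). For the 15 genes with one in both lists the median centred difference was 0.28, with 10 above the median of all genes and 5 below, and it was 0.01 when regions were taken by overlap with the gene instead of by assigned gene. POLE (3.01 in WT and 6.83 in KO), RFC1 (3.51 and 5.34) and RPA2 (3.00 and 4.49) were past a fold of 1.5 on the higher side (3 of 15, where 7.90% of all genes were), and 0 of 15 on the lower, where 7.81% were.

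By position, a pSer2 summit from 1 kb past the start to the end was listed for 21 of the 36 genes with RPB1 at the start in WT (58.3%, against 67.2% of all such genes) and 19 in KO (52.8%, against 60.3%). The value of POLE turned over when position was used. The stronger WT region of its 3′ end (chr12:132620759-132623212, fold enrichment 9.40) was given to P2RX2, while the KO region over the same stretch (chr12:132621864-132623164, 6.83) was given to POLE. Within the window at the transcript end POLE therefore went from 9.40 to 6.83, a centred difference of -0.36. RFC1 read 5.19 and 5.34 at its end. RPA2 had a region there in WT of 2.79 and none in KO.

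A pSer2 body region in WT only was listed for FEN1, MCM5, POLD1, RFC3 and RRM1 (5 of 22, where 19.4% of all genes had this), of fold enrichment 3.65 at RRM1 to 5.09 at FEN1. In KO only it was listed for ORC5 and ORC6 (2 of 22, where 6.74% had this), at 3.87 and 3.05. All but that of FEN1 lay below the gene median of 4.78 in each line. By position the regions of MCM5, RFC3 and RRM1 had no summit between 1 kb past the start and the end of the transcript in either line.

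Near the transcript end, where elongating polymerase gathers, pSer2 was listed for 24 of the 37 genes in WT and 23 in KO. Among the 36 genes with RPB1 at the start it was listed for 23 in WT (63.9%, against 75.2% of all such genes) and 22 in KO (61.1%, against 70.3%). The median level was 5.60 in WT and 6.46 in KO, against 6.21 and 5.99 over all genes. Over the 23 genes with both values the median centred difference was 0.13, with 14 above the median of all genes and 9 below.

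PCNA was the gene past a fold of 1.5 on the lower side (1 of 23, where 9.98% of all genes were), with 9.04 in WT and 4.93 in KO. Those regions lay 1046 bp and 1718 bp past the PCNA end and were given to TMEM230, whose RPB1 promoter region of 22.0 in WT and 18.9 in KO covers the same place. ORC2 (5.61 and 8.10) and ORC6 (4.56 and 6.46) were past it on the higher side (2 of 23, where 9.56% were). The ORC2 end region was given to NIF3L1, and that of ORC6 to ORC6 itself.

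**Figure D4:**
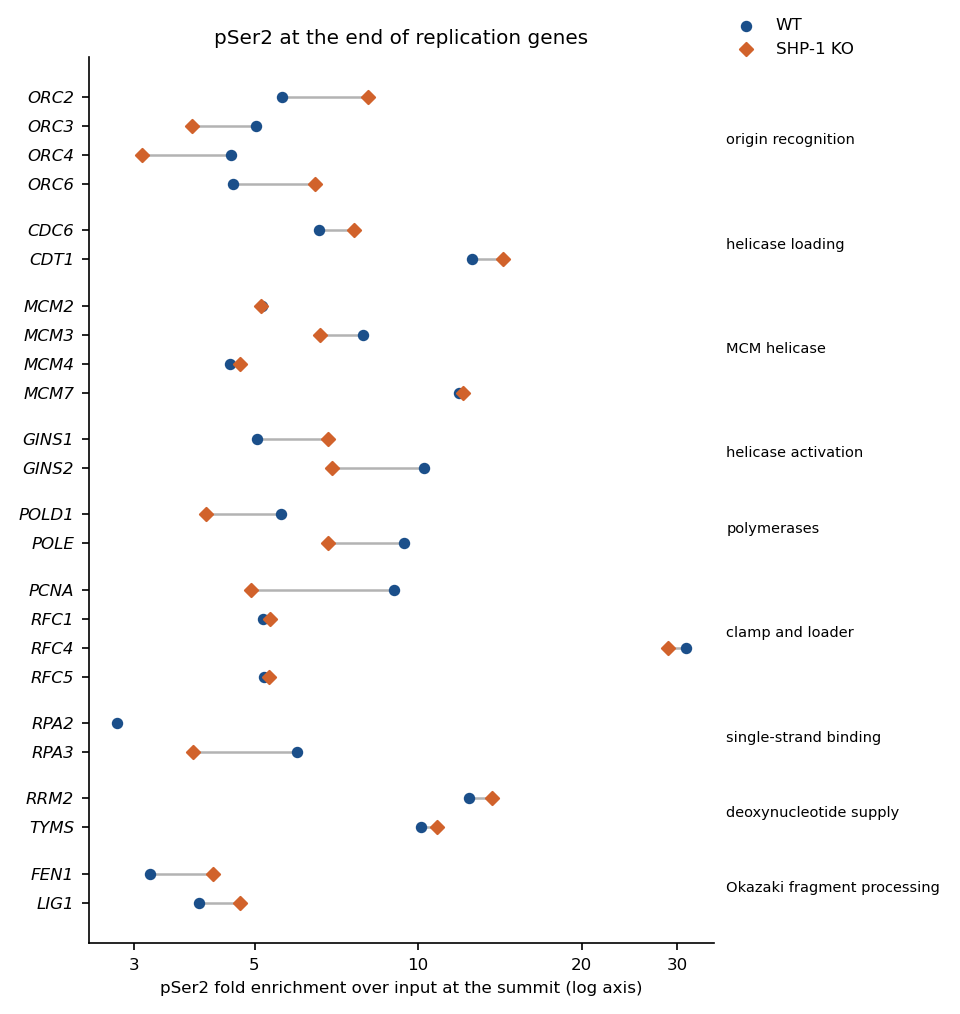
pSer2 fold enrichment over input from 1 kb before to 3 kb past the transcript end (log axis) for the replication genes with a region there, grouped by role. Circles are WT and diamonds SHP-1 KO, 1 library each. RFC4 stands apart at 31.0 and 28.8, and RPA2 has a WT value only.

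The highest end values came from regions given to neighbours. RFC4 read 31.0 in WT and 28.8 in KO, from a region given to MIR1248. CDT1 read 12.6 and 14.4 from regions given to APRT whose summits lay inside CDT1, and RRM2 12.4 and 13.7 from a region given to C2orf48. In WT 9 of the 24 end regions were given to the gene itself (37.5%, against 48.4% of all genes), and in KO 9 of 23 (39.1%, against 48.0%). MCM7 read 11.9 and 12.1 from a region given to MIR106B, a microRNA gene that lies in an intron of MCM7.

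ORC2 carried the longest run of assigned pSer2 body regions, 35 regions of 16636 bp in WT and 28 of 15009 bp in KO. Of these, 25 regions of 10364 bp in WT and 22 of 11354 bp in KO had their summit within its transcript of 54684 bp, at levels of up to 5.09 and 6.45, and the others lay before the start. TYMS came next in WT, with 8 regions of 6115 bp, and had 4 of 1785 bp in KO, but the summits of 7 of the 8 and of all 4 lay before its start. By position its transcript was covered to 52.6% in WT and 51.3% in KO, with regions of the 3′ part given to ENOSF1, which overlaps TYMS from the other strand. GINS1 had 6 regions of 4239 bp in WT and 2 of 3686 bp in KO, with 4 and 1 of the summits inside the transcript and the strongest, 5.05 and 6.81, past its end.

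**Figure D5:**
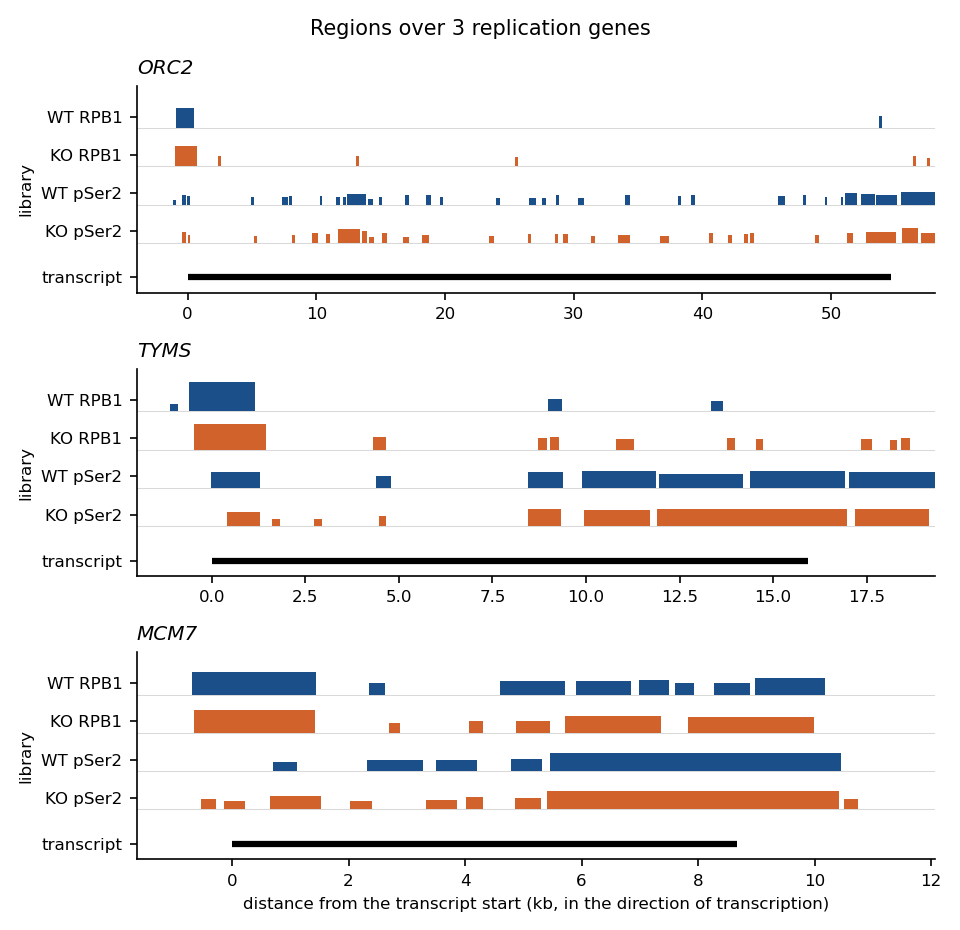
Regions over ORC2, TYMS and MCM7 by distance from the transcript start (kb), whatever gene they were given to, with blue bars for WT and orange for SHP-1 KO. Bar height is the log2 of fold enrichment and the black bar is the transcript. RPB1 is tallest at the start, and pSer2 runs along ORC2 and fills the 3′ part of TYMS and MCM7.

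Coverage of the transcript by pSer2 was low for most of these genes. Its median over the 37 was 0.881% in WT and 1.05% in KO, against 5.69% and 3.43% over the 10927 genes with RPB1 at the start in both lines. It was lower in KO for 21 of the 37, higher for 7 and equal for 9, while 58.3% of all those genes were lower and 23.3% higher. At CDT1, MCM7 and TYMS more than 51% of the transcript was covered in both lines, in regions given in part to a neighbour. Coverage by RPB1 had a median of 2.12% in WT and 1.66% in KO, against 3.90% and 3.33% over all those genes. It was lower in KO for 26 of the 37 and higher for 11, while 65% of all those genes were lower and 33% higher.

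Ratios of the strongest assigned promoter region to the strongest assigned body region were taken within the same library. For RPB1 they lay above 1 at 5 of 5 genes in WT and 8 of 8 in KO, where 88.4% and 88% of all genes did. Their medians were 2.77 and 4.50 (4.50 and 3.48 over all genes). For pSer2 they were above 1 at 7 of 13 genes in WT and 5 of 10 in KO, where 44.9% and 44.6% of all genes were. The pSer2 medians were 1.04 and 0.954 (0.948 and 0.951 over all genes). Assigned regions need not lie within the transcript.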

How the data were processed

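RPB1 and pSer2 ChIP-seq of WT and SHP-1 KO HepG2 lines was analysed, with 1 library per antibody and cell line. The 2 input libraries were not analysed here. The authors trimmed reads with Trimmomatic, aligned them to GRCh38/hg38 with BWA and ran MACS2 against input for narrow peaks, all within MUGQIC's pipeline. Tool versions are not given in the sources used here. The deposited lists hold a ratio, the summit's fold enrichment over input, the −log10 of the p-value and q-value, a feature class and the nearest gene. They hold no read counts, so depth is unknown. The authors' separate csaw table of RPB1 windows, with counts of windows, p-values and directions, was not used.

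For each gene the strongest region of a class was taken, and log2 KO to WT ratios were centred on the median of all genes. Starts and ends came from MANE Select transcripts of GENCODE release 44, with windows of 500 bp on each side of the start and from 1 kb before to 3 kb past the end. These windows were chosen after the data were seen, because the nearest-gene assignment gave several starts to neighbours. A fold of 1.5 was called past. Genes given values were at least each role's highest and lowest, those past the fold, those listed in 1 line only and the 3 with the longest pSer2 body coverage, and most other members were given values too. A result for a further gene is not reported here. No p-values are possible. Genes and lists were chosen with earlier results of these data known. Python 3.11.15, pandas 2.3.3, NumPy 2.4.6 and matplotlib 3.10.9 were used, and the scripts were checked on simulated data.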

Additional observations from a re-analysis of the deposited data

How the results depend on the processing

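The median centred RPB1 promoter difference stayed negative under every alternative run, from -0.21 with a length-weighted mean to -0.14 with a stricter q, apart from the fit without centring. The pSer2 body median of 0.28 stayed positive but fell to 0.01 when regions were taken by overlap with the gene span, and the pSer2 promoter median of 0.06 turned to -0.15 by position at the start and to -0.00 without centring. The authors' promoter class already reaches only 1 kb, so the narrower promoter class gave identical values. With regions of a −log10 q of at least 5, 0 of the genes were past the fold for RPB1 body on the lower side, 1 for pSer2 body on the higher, and 3 genes in WT and 1 in KO kept an RPB1 body region. With regions taken by overlap with the gene span, RPB1 body gave 0 lower, and pSer2 body gave 1 lower and 1 higher. A length-weighted mean gave 4 lower and 5 higher for RPB1 promoter, 1 lower for pSer2 promoter and 1 lower for pSer2 body. Without centring the RPB1 promoter median was -0.62, with 18 lower and 0 higher, where the median of all genes was -0.46. The RPB1 start median was then -0.67, with 22 lower and 0 higher, where the median of all genes was -0.48. Of all genes, 84.8% and 87.5% had a lower value in KO in these 2 readings. Without centring, pSer2 at the end gave 2 lower and 0 higher. The shares of all genes past the fold under the alternative settings are not given here. With a fold of 2 there were 0 lower and 0 higher for RPB1 promoter, RPB1 start and pSer2 end, 0 lower for pSer2 promoter and 1 higher for pSer2 body. The following choices were added after seeing the data. Among genes whose start summits lay within 500 bp of each other, RPB1 start gave 3 lower and 2 higher, without MCM7. By position at the end, pSer2 gave 1 lower. Among genes with no divergent coding start within 1 kb, RPB1 body gave 0 lower, 3 genes in WT and 5 in KO had an RPB1 body region and 11 in KO a pSer2 body region, and pSer2 at the end gave 1 higher. These last counts come from fewer genes, and the cause of the other changes was not tested. No paired analysis was possible because there is 1 library per antibody and cell line and the labels carry no replicate numbers.

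With 1 library each and no read counts, neither the spread between cultures nor the counting error of a fold enrichment is known. A gene absent from 1 list has no value there, so the size of such a difference was not measured.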

Other observations

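Other genes of the replication machinery were read in the same way. Of 40 listed symbols, 39 were matched, and the symbol left out, CTF18, is another name of the listed CHTF18. Of the 39 genes, 39 had RPB1 at the start in WT and 38 in KO. The median centred log2 difference of the 38 with both was -0.00, with 19 below the median of all genes. PRIM1, the primase subunit, had a fold enrichment of 5.89 in WT and 10.0 in KO, POLD2 17.5 and 26.4, POLA2 29.3 and 40.5, and DONSON 15.0 and 16.4, and these 4 were past a fold of 1.5 on the higher side. TIMELESS, of the fork protection complex, had 36.0 and 14.1, and DUT, the dUTPase, 37.0 and 17.5, the 2 past it on the lower side. Of all genes 8.57% were past the fold on the higher side and 8.64% on the lower.

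At the transcript end of these other genes, GMNN, the inhibitor of CDT1, had pSer2 values of 10.5 in WT and 3.41 in KO, and SLBP, the histone mRNA binding protein, 9.40 and 3.86. Both were past the fold on the lower side, as was ASF1B (4.47 and 2.67). DONSON (9.32 and 14.4), MTBP (11.0 and 19.9), RECQL4 (7.26 and 12.6) and TOP1 (5.75 and 8.88) were the 4 of 24 with both values past it on the higher side, where 9.56% of all genes were.

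Among 17 genes that control the passage from G1 to S phase, all had RPB1 at the start in both lines, with a median centred difference of -0.34. CCNE1 (24.5 in WT and 10.6 in KO), E2F2 (11.4 and 4.22), RB1 (48.4 and 22.4) and RBL2 (25.3 and 10.1) were past the fold on the lower side, 4 of 17 where 8.64% of all genes were. CDKN1A, the cyclin-dependent kinase inhibitor p21, was past it on the higher side, 1 of 17 where 8.57% were, with 54.4 and 60.6. For pSer2 at the end, of 11 with both values, CDKN1A (7.60 in WT and 15.3 in KO), CDK4 (10.3 and 16.9) and E2F4 (4.94 and 9.17) were past it on the higher side and CDKN1B (12.7 and 5.69) on the lower. These values have no replicate error, and their cause was not tested.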
